A study of Homo sapiens with 24 samples.

Results

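Transcripts of 8 genes encoding haematopoietic progenitor transcription factors, HHEX, LYL1, LMO2, ERG, GATA2, MEIS1, BCL11A and ZBTB16, were followed through human leukaemia cells. The genes were taken by symbol, and all 8 were among the 15862 genes of the expression table. The cells were LOUCY and JURKAT, both established from patients with T-cell leukaemia. LOUCY is widely used to stand for leukaemia of early T precursors, and JURKAT resembles a later stage of T-cell development. The study they belong to is on leukaemia of early thymic progenitors and mutations of Ezh2 and Runx1. Polyadenylated RNA was sequenced in 24 libraries of 5 groups. These were LOUCY given 250 nM JQ1 for 24 h (n = 4), LOUCY given 500 nM I-BET151 for 24 h (n = 4), LOUCY given the solvent DMSO at 0.05% for 24 h (n = 4), untreated LOUCY (n = 6) and untreated JURKAT (n = 6). Each group was split evenly between 2 experiments. Both inhibitors, JQ1 with its thienotriazolodiazepine core and I-BET151 with its dimethylisoxazole group, displace BET bromodomain proteins from acetylated histones. Each kind of leukaemia is represented by 1 line, so a difference between lines cannot be told apart from one between subtypes. JURKAT was not given the inhibitors here.

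Blood progenitors that enter the thymus carry a set of transcription factors that also act in haematopoietic stem cells. LYL1, a helix-loop-helix factor, binds DNA with an E-protein partner and is bridged by LMO2, a LIM-domain adaptor, to GATA factors such as GATA2. The ETS factor ERG occupies many of the same enhancers in progenitors. HHEX and MEIS1 are homeodomain factors, and BCL11A and ZBTB16 are zinc-finger factors that recruit corepressors. Normal thymocytes shut down much of this set as they commit to the T lineage.

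Sequence just upstream of the transcription starts is given first, because GATA2, ERG, LYL1 and HHEX differed most between the lines and the motifs bound by members of the set can be read there directly. RefSeq on GRCh38.p14 held 14 promoter entries for 6 of the 8 genes, HHEX, LYL1, ERG, GATA2, MEIS1 and BCL11A. Motifs were searched on both strands in the 250 bases before each start, and matches stand in capitals below. They were the E-box CANNTG bound by helix-loop-helix factors, GATAA, the ETS motif CCGGAAG, the MEIS motif TGACAG and TATAAA.

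HHEX, chr10:92689705-92689954, plus strand: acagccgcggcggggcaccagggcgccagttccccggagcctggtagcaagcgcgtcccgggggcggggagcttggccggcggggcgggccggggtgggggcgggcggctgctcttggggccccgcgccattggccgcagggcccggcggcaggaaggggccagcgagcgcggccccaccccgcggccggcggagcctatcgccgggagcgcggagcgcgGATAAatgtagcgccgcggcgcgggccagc
ERG upstream start, chr21:38660668-38660917, minus strand: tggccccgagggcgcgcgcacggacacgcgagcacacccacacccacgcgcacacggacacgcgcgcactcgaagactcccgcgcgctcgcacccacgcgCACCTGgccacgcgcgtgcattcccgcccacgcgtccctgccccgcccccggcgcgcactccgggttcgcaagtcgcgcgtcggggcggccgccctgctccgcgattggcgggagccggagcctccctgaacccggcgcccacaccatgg
GATA2 upstream start, chr3:128493202-128493451, minus strand: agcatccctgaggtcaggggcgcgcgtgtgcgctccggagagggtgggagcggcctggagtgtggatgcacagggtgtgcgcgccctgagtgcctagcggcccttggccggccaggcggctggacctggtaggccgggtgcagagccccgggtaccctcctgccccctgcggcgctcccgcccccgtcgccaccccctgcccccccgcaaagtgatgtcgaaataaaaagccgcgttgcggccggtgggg
GATA2 downstream start, chr3:128488531-128488780, minus strand: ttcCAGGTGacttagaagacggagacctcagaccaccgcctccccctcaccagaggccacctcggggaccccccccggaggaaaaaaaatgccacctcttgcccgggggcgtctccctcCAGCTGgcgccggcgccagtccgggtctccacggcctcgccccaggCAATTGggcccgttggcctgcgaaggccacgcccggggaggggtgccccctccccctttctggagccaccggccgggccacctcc
LYL1 nearest 30 bases, chr19:13102859-13102888, minus strand: tccTTATCaggcgcggccaggcagcctggc

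The HHEX window had a GATAA match beginning 30 bases before the start, and LYL1 had the same motif on the opposite strand. All 250 bases of the LYL1 window lie in annotated exons, within the LYL1 gene of the annotation used for positions. Its match is therefore upstream of the RefSeq start only. The upstream ERG window held 1 E-box, the downstream GATA2 window held 3, and the upstream GATA2 window held none of the 5 motifs. An E-box was present in 7 of the 14 windows and in 61.8% of all 35116 promoters of that length. GATAA was present in 4 of 14 against 20.4% of all promoters, and the ETS motif in 1 of 14, a MEIS1 window, against 8.52%. The ERG windows chr21:38498505-38498754 and chr21:38498478-38498727 overlap and hold the same GATAA site and shared E-boxes. Both counts therefore take these sites more than once, and most of the 14 windows belong to ERG and BCL11A. The MEIS motif (13.0% of all promoters) and TATAAA (10.7%) were in 0 of 14. The windows printed whole held 81.2% GC for HHEX, 77.2% for the upstream ERG start, and 72.8% and 71.2% for the upstream and downstream GATA2 starts, with a median of 58.0% over all promoters. These matches describe the letters only, and the gene totals analysed here do not show which start was used.

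LOUCY and JURKAT were checked against lineage markers before the comparisons. Of 9 T-lineage markers, 7 averaged 1 RPKM or more in each LOUCY group and 9 did in JURKAT, where RPKM is the read count scaled to gene length and library size. CD2 and CD5 stayed under 1 RPKM in LOUCY. The summed T-lineage level was 1062 to 1124 RPKM with JQ1, 837 to 1214 with I-BET151, 1611 to 2063 with DMSO, 1922 to 2520 in untreated LOUCY and 1574 to 2043 in JURKAT. CD3D carried most of it in LOUCY, at a mean of 1531 RPKM untreated against 914.8 in JURKAT. CD3G and CD7 also averaged higher in untreated LOUCY, and the other T-lineage markers averaged higher in JURKAT. Of 9 myeloid markers, 6 were listed, summing to 5.18 to 8.73, 6.12 to 8.32, 21.3 to 29.4, 26.5 to 40.8 and 14.5 to 19.3 RPKM in the same group order. CEBPE carried the JURKAT sum, at a mean of 16.6 RPKM, and was under 1 RPKM in LOUCY. CD33, MPO and LYZ averaged 0.183, 0.176 and 0.129 RPKM in JURKAT and were higher in every LOUCY group. The 5 B-lineage markers used were all listed and summed to 266 to 358, 199.8 to 373, 343 to 609, 439 to 714.5 and 14.6 to 24.8 RPKM. CD79A, CD79B and EBF1 carried this level in LOUCY, while PAX5 and MS4A1 stayed under 1 RPKM in every group. Of 7 erythroid and megakaryocyte markers 2 were listed, at no more than 1.75 RPKM together. All 5 endothelial markers were listed and summed to 4.29 to 4.56, 2.96 to 5.61, 22.4 to 27.7, 23.5 to 30.3 and 9.06 to 13.9 RPKM. PECAM1 carried most of this in every group, VWF averaged under 1 RPKM, and CDH5, KDR and TEK averaged under 0.3 RPKM. No listed marker was at 0 in all libraries of a group. The part of these shifts in the results below was not tested, and in bulk RNA fewer cells of a type cannot be told apart from less RNA per cell.

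Libraries held 4381134 to 7074198 reads in listed genes. Expression trended with the GC content of genes to a different degree in each, and 3 stood apart with the steepest negative slopes, replicate 1 of experiment 2 with I-BET151, replicate 1 of experiment 2 with DMSO and untreated LOUCY replicate 2 of experiment 2. Their slopes were -0.332, -0.303 and -0.239 log2 units per 10 percentage points of GC, relative to their groups, and the other 21 libraries lay between -0.132 and 0.167. HEXIM1, a gene known to rise when BET proteins are displaced, averaged 53.1 ± 2.72 RPKM with JQ1 and 50.8 ± 7.05 with I-BET151, against 19.7 ± 2.21 with DMSO (SD, n = 4 each).

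**Figure D1:**
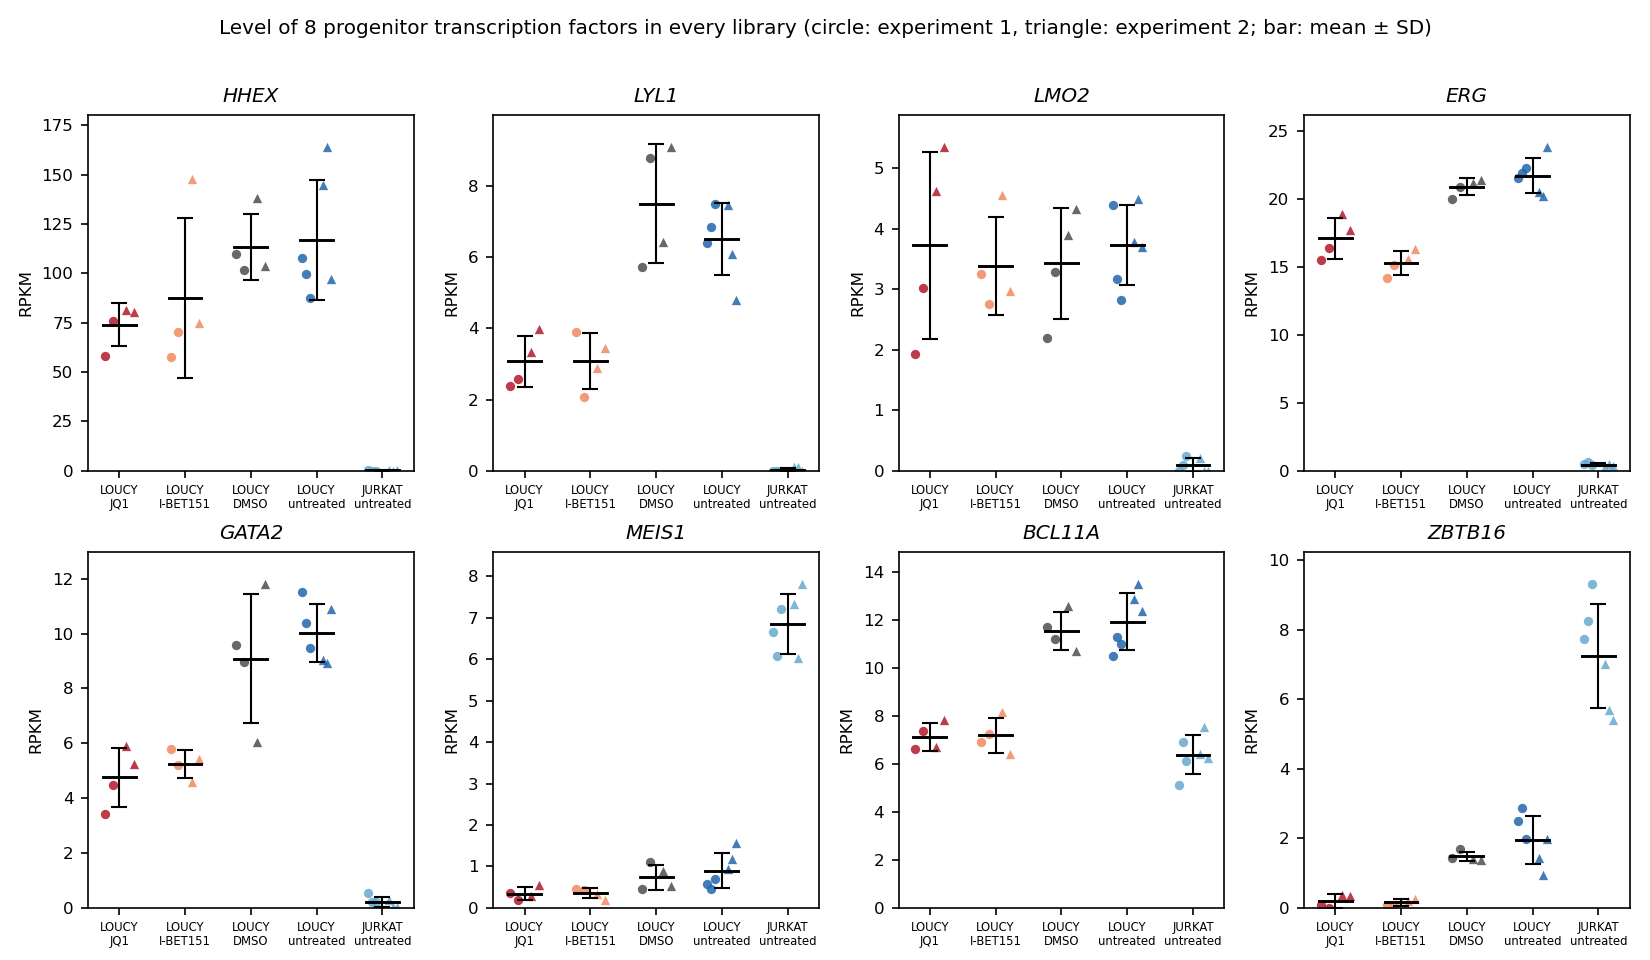
Level of each of the 8 genes in every library, in RPKM on a linear vertical axis that starts at 0, with groups along the horizontal axis. Circles are libraries of experiment 1, triangles of experiment 2, and bars give mean ± SD (n = 4 for the treated groups, n = 6 for the untreated lines). HHEX, LYL1, LMO2, ERG and GATA2 are near 0 in JURKAT, whereas MEIS1 and ZBTB16 are highest there.

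Untreated LOUCY was set against untreated JURKAT to ask which of these factors separate the lines at rest. HHEX, LYL1, LMO2, ERG, GATA2 and BCL11A were higher in LOUCY, and MEIS1 and ZBTB16 were lower. HHEX and ERG had the largest differences, of 6.51 (SE 0.14) and 3.97 (SE 0.08) on the scale of log2(RPKM + 1), which understates the change of genes near 0. As ratios of reads per library size, HHEX (416) and LYL1 (184, on 2 JURKAT reads) were the largest, with 48.7 for ERG. All 8 genes passed limma's test with Benjamini-Hochberg adjustment over the 11978 genes tested, 6 higher and 2 lower, and for each the 6 LOUCY libraries did not overlap the 6 JURKAT libraries. Over all tested genes 35.5% were higher and 37.5% lower, the libraries of the lines did not overlap for 49.4%, and the median difference was -0.02. HHEX, LYL1, LMO2, ERG and GATA2 reached the expression minimum of 1 RPKM in 4 libraries through LOUCY alone, and MEIS1 through JURKAT alone. These 6 had to differ, and their count is a description. All 8 also passed within each experiment taken alone, where 66.6% of all genes passed in experiment 1 and 59.1% in experiment 2.

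The labels do not state whether numbered replicates came from separate cultures, so p-values here measure the spread between libraries, which may be partly technical. DMSO was set against untreated LOUCY to give the background of treatment. By limma 0 of the 7 members tested passed, with adjusted p of 0.751 to 0.994, where 0.175% of all genes passed. At an unadjusted p under 0.05 the counts were 0 of 7 members and 1100 of all 11411 genes. By limma voom on recovered reads the members' count was 0 as well. In every one of the 7 the DMSO libraries overlapped the untreated libraries. That is a description, since the share of all genes that overlap was not counted. The culture time of the untreated cells is not given, so an effect of the solvent cannot be told apart from one of handling.

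Under the inhibitors 6 of 7 tested members fell with JQ1 and 5 of 7 with I-BET151, each against the same 4 DMSO libraries (limma, adjusted p under 0.05). LYL1, ERG, GATA2, BCL11A and ZBTB16 fell with both inhibitors. HHEX fell with JQ1, and its adjusted p with I-BET151 was 0.0897. LMO2 stayed within 0.06 on the log2 scale with either. Over all 11411 tested genes 15.9% fell with JQ1 and 15.9% with I-BET151, and the median difference of all genes was -0.01 and 0.00, beside -0.62 and -0.62 over the 7 members. The libraries lay wholly below DMSO for 16.4% of all genes with JQ1 and 13.1% with I-BET151. ZBTB16 reached the expression minimum through the DMSO and untreated libraries alone, so its call is a description. MEIS1 was under that minimum in the LOUCY libraries and was not among the 7.

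**Figure D2:**
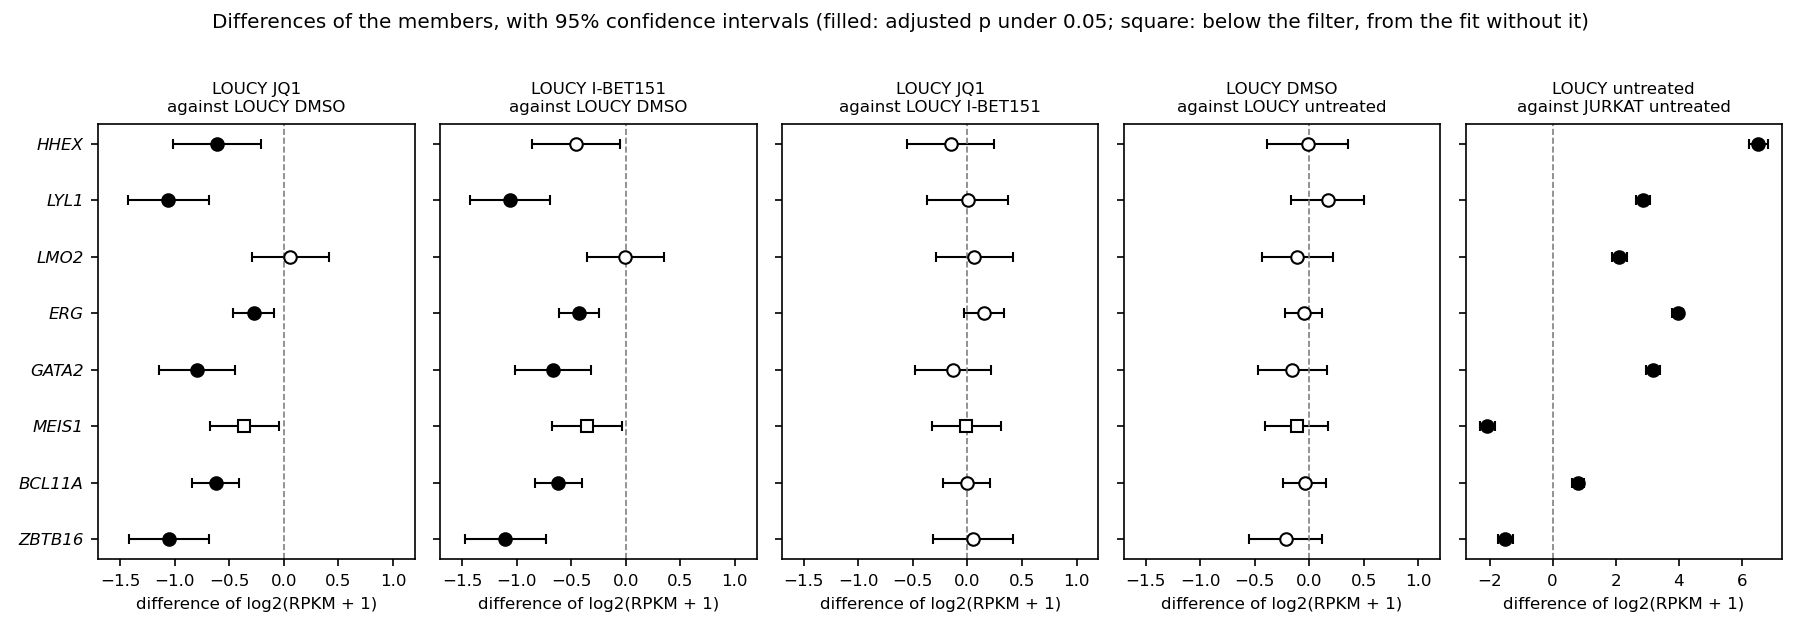
Difference of each gene in 5 comparisons, in log2(RPKM + 1) on the horizontal axis (on a wider scale for the 2 lines), with 95% confidence intervals. Filled symbols passed an adjusted p of 0.05, and squares show MEIS1 from a fit without the expression minimum. JQ1 and I-BET151 give negative differences for LYL1, ERG, GATA2, BCL11A and ZBTB16, and JQ1 against I-BET151 gives intervals that all include 0.

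LYL1, the helix-loop-helix partner of the LMO2 complex, lies on chromosome 19 from 13099033 to 13103161 (minus strand). It stood at 2.39, 2.58, 3.34 and 3.98 RPKM with JQ1, at 3.89, 2.08, 2.89 and 3.46 RPKM with I-BET151, and at 5.73, 8.78, 6.42 and 9.09 RPKM with DMSO. Every inhibitor library was below every DMSO library. LYL1 fell to 3.07 ± 0.73 RPKM with JQ1 and 3.08 ± 0.78 with I-BET151, against 7.51 ± 1.68 with DMSO (SD, n = 4 each). The log2 differences were -1.06 for both (SE 0.18; limma adjusted p = 0.0001956 for JQ1 and 0.0001959 for I-BET151). Untreated LOUCY ranged from 4.81 to 7.50 RPKM with a median of 6.62, and the DMSO libraries overlapped it. In JURKAT, 4 of 6 libraries held no LYL1 read and the other two held 1 read each. Untreated LOUCY held 395 reads against 2 in JURKAT, a ratio per library size of 184 with an exact 95% counting interval of 50.7 to 1528, which covers counting error only.

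LMO2, the adaptor that LYL1 needs to reach GATA factors, lies on chromosome 11 from 33858576 to 33892289 (minus strand). Its levels were 1.93, 3.02, 4.63 and 5.35 RPKM with JQ1, 3.25, 2.75, 4.56 and 2.98 with I-BET151, and 2.20, 3.29, 3.89 and 4.33 with DMSO. The groups overlapped throughout, and the lowest JQ1 and DMSO libraries both came from replicate 1 of experiment 1. LMO2 differed by 0.06 with JQ1 (95% interval -0.29 to 0.41) and by -0.00 with I-BET151 (-0.36 to 0.35), neither past limma's threshold (adjusted p = 0.837 and 0.989). Untreated LOUCY held 2.82 to 4.50 RPKM (median 3.74) and JURKAT 0 to 0.25 RPKM, with no read in 3 of 6 libraries. The ratio of untreated LOUCY to JURKAT reads was 41.6 (exact 95% counting interval 19.96 to 104).

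GATA2, a zinc-finger factor needed by stem and early progenitor cells, lies on chromosome 3 from 128479427 to 128493185 (minus strand). It stood at 3.41, 4.49, 5.90 and 5.26 RPKM with JQ1 and at 5.78, 5.20, 4.58 and 5.42 with I-BET151. With DMSO it stood at 9.58, 8.96, 6.06 and 11.8 RPKM. Every inhibitor library was below every DMSO library, although DMSO replicate 1 of experiment 2, a library of steep GC slope, stood at 6.06 RPKM beside 5.90 in the highest JQ1 library. GATA2 fell to 4.77 ± 1.07 RPKM with JQ1 and 5.24 ± 0.51 with I-BET151, against 9.09 ± 2.35 with DMSO (SD, n = 4 each). The log2 differences were -0.80 (SE 0.16) and -0.66 (SE 0.16), with limma adjusted p of 0.00144 and 0.005789. Untreated LOUCY lay between 8.93 and 11.5 RPKM (median 9.92) and JURKAT between 0.0452 and 0.536 (median 0.221). JURKAT held 26 reads in all, and the ratio of untreated LOUCY to JURKAT reads was 46.4 (exact 95% counting interval 31.5 to 71.3).

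ERG, an ETS factor of stem cells, megakaryocytes and endothelium, lies on chromosome 21 from 38380027 to 38661780 (minus strand). Libraries with JQ1 held 15.5, 16.4, 18.9 and 17.7 RPKM, those with I-BET151 14.2, 15.1, 15.6 and 16.3, and those with DMSO 20.02, 20.9, 21.2 and 21.4. Neither inhibitor group overlapped DMSO, although the 2 inhibitor groups overlapped each other, and the shift was the smallest among the members that passed. ERG fell to 81.9% of its DMSO mean with JQ1 (log2 -0.28, SE 0.09, limma adjusted p = 0.02696) and to 73.2% with I-BET151 (log2 -0.43, SE 0.09, limma adjusted p = 0.001502). The JQ1 call was lost on leaving out any of 5 of the 8 libraries compared, namely DMSO and JQ1 replicates 1 and 2 of experiment 1 and JQ1 replicate 2 of experiment 2 (adjusted p = 0.0521 to 0.0943). It was also lost with the replicates of an experiment averaged (adjusted p = 0.125). Untreated LOUCY held 20.2 to 23.8 RPKM (median 21.7), overlapping DMSO, against 0.288 to 0.671 RPKM in JURKAT (median 0.430).

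HHEX, a homeodomain factor of blood and endothelial progenitors, lies on chromosome 10 from 92689951 to 92695646 (plus strand). It was the most abundant member per gene length in LOUCY. With JQ1 its level was 58.3, 76.1, 81.3 and 80.7 RPKM, with I-BET151 57.8, 70.2, 148 and 75.0, and with DMSO 110, 102, 138 and 104. All JQ1 libraries were below all DMSO libraries, whereas the I-BET151 library of replicate 1, experiment 2, was above every DMSO library and the other 3 were below. HHEX fell by 0.61 on the log2 scale with JQ1 (SE 0.19, limma adjusted p = 0.02468). This call was lost on leaving out any of 6 of the 8 libraries compared, that is DMSO replicates 1 and 2 and JQ1 replicate 1 of experiment 1, and DMSO replicate 1 and JQ1 replicates 1 and 2 of experiment 2 (adjusted p = 0.0566 to 0.0739). It was lost too without the experiment term (adjusted p = 0.0676). With I-BET151 the difference was -0.46 (95% interval -0.86 to -0.05, limma adjusted p = 0.0897).

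That I-BET151 library had the steepest GC slope of the series. HHEX was the highest of its group in each of the 3 libraries of steep slope, at 148 RPKM with I-BET151, 138 with DMSO and 164 in untreated LOUCY. Without those 3 libraries the difference with I-BET151 was -0.64 (limma adjusted p = 0.002511) and that with JQ1 was -0.55 (adjusted p = 0.003859). Without the I-BET151 library alone the difference was -0.69 (adjusted p = 0.003508), and in experiment 1 alone it was -0.72 (adjusted p = 0.004505). In experiment 2 alone it was -0.19 (adjusted p = 0.818). Over 22 other settings the adjusted p ran from 0.002511 to 0.8176, and HHEX passed with I-BET151 in 4 of them. With each library's GC trend removed relative to its group, which by construction leaves the group means as they are, the I-BET151 difference of -0.46 had an adjusted p of 0.07267 and the JQ1 difference of -0.61 one of 0.01875. Untreated LOUCY ranged from 87.8 to 164 RPKM (median 103.8), and JURKAT from 0 to 0.58 RPKM with 16 reads in all. The ratio of untreated LOUCY to JURKAT reads was 416 (exact 95% counting interval 256 to 728).

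**Figure D3:**
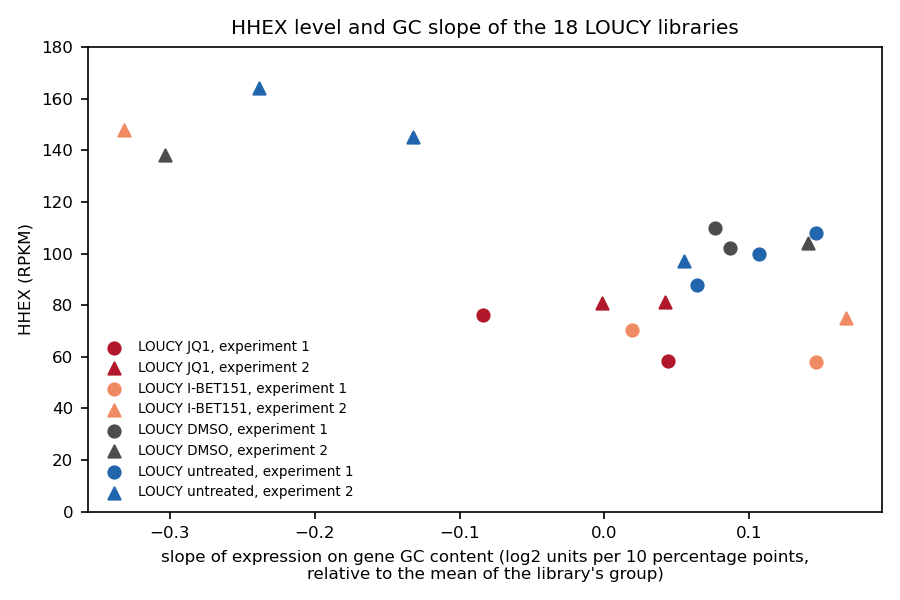
HHEX level in RPKM (vertical axis, from 0) against the slope of expression on gene GC content (horizontal axis, log2 units per 10 percentage points, relative to the group mean) in the 18 LOUCY libraries. Colour marks the group and shape the experiment. The 3 libraries with slopes of -0.332, -0.303 and -0.239 hold 148, 138 and 164 RPKM, each the highest of its group.

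BCL11A, a zinc-finger repressor of lymphoid progenitors, lies on chromosome 2 from 60450520 to 60555154 (minus strand). Its levels were 6.61, 7.40, 6.72 and 7.84 RPKM with JQ1, 6.93, 7.25, 8.19 and 6.42 with I-BET151, and 11.7, 11.2, 12.6 and 10.7 with DMSO. No inhibitor library reached the DMSO range. BCL11A fell to 61.9% of its DMSO mean with JQ1 and 62.4% with I-BET151 (log2 -0.62 for both, SE 0.10; limma adjusted p = 0.0001786 and 0.0002066). Of the members it had the narrowest margin between the lines, at 10.5 to 13.5 RPKM in untreated LOUCY (median 11.8) against 5.13 to 7.56 in JURKAT (median 6.33), a log2 difference of 0.81 (SE 0.08, limma adjusted p = 4.241e-07). The inhibitor-treated LOUCY libraries overlapped the JURKAT range. DMSO and untreated LOUCY overlapped each other.

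ZBTB16, a BTB zinc-finger factor of progenitors and innate-like lymphocytes, lies on chromosome 11 from 114059593 to 114250676 (plus strand). JURKAT held more of it, at 0.937 to 2.86 RPKM in untreated LOUCY (median 1.99) against 5.40 to 9.30 in JURKAT (median 7.38; log2 -1.50, SE 0.11, limma adjusted p = 1.104e-08). With JQ1 it stood at 0.0802, 0, 0.385 and 0.355 RPKM and with I-BET151 at 0.0754, 0.0806, 0.213 and 0.255. With DMSO it stood at 1.44, 1.68, 1.41 and 1.39 RPKM. All inhibitor libraries were below all DMSO libraries, but the counts were small, with 10 reads over the JQ1 libraries and 8 over the I-BET151 libraries against 79 over the DMSO libraries. The ratio of reads per library size was 0.137 for JQ1 (exact 95% counting interval 0.0635 to 0.266) and 0.105 for I-BET151 (0.0440 to 0.218). On the log2(RPKM + 1) scale the differences were -1.053 and -1.102 (SE 0.18 each), again a description.

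MEIS1, a homeodomain partner of HOX and PBX proteins, lies on chromosome 2 from 66433452 to 66573869 (plus strand). Unlike most members it was higher in JURKAT, with 0.459 to 1.56 RPKM in untreated LOUCY (median 0.817) against 6.03 to 7.81 in JURKAT (median 6.94; log2 -2.07, SE 0.11), which is a description, since it met the expression minimum through JURKAT. Its exons overlap the antisense genes MEIS1-AS2 and MEIS1-AS3, and these libraries do not mark the strand, so their reads cannot be told apart from its own. LOUCY libraries held 0.367, 0.181, 0.293 and 0.542 RPKM with JQ1, 0.460, 0.430, 0.325 and 0.194 with I-BET151, and 0.451, 1.097, 0.891 and 0.528 with DMSO. The highest inhibitor libraries overlapped the lowest DMSO library. In a fit without the expression minimum the differences were -0.36 with JQ1 and -0.35 with I-BET151, and neither passed (limma adjusted p = 0.112 and 0.122). In reads the ratio to DMSO was 0.451 for JQ1 (exact 95% counting interval 0.261 to 0.754) and 0.471 for I-BET151 (0.278 to 0.777), which covers counting error only.

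The order of the 5 groups was alike for HHEX, GATA2 and BCL11A, from untreated LOUCY through DMSO, I-BET151 and JQ1 to JURKAT. ERG differed from it only in that I-BET151 stood below JQ1. For LYL1, DMSO stood above untreated LOUCY. In each of these 5 genes the DMSO and untreated groups overlapped and so did the JQ1 and I-BET151 groups. DMSO and the inhibitor group next to it did not overlap for LYL1, ERG, GATA2 and BCL11A and did for HHEX. LMO2 had 4 overlapping LOUCY groups above JURKAT. MEIS1 and ZBTB16 had JURKAT first, followed by untreated LOUCY, DMSO and the inhibitors.

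Within experiments, 6 of 7 members had a negative difference in both experiments with JQ1 and 6 of 7 with I-BET151, LMO2 being the exception for each. Of all genes 38.3% were negative in both experiments with JQ1 and 38.7% with I-BET151. In experiment 1 alone 6 of 7 passed as lower with JQ1 and 6 of 7 with I-BET151, where 17.5% and 14.2% of all genes did. In experiment 2 alone 0 passed with JQ1 by limma, with adjusted p of 0.0826 for ZBTB16 and 0.0876 for LYL1. There 3 members had an unadjusted p under 0.05, a description, since the share of all genes at that cut was not counted. limma voom was not run within experiments. LYL1 and ZBTB16 passed with I-BET151 in experiment 2 (limma adjusted p = 0.0472 and 0.0417). ZBTB16 met the expression minimum through the DMSO and untreated libraries alone, so its part in these counts is a description. Fewer of all genes passed in experiment 2 as well, with 2.64% lower for JQ1 and 3.15% lower for I-BET151. With both experiments 1157 genes were higher and 1814 lower with JQ1, and 1180 higher and 1819 lower with I-BET151. No interaction of a member with the experiment passed limma's test (adjusted p of 0.614 or more in all 5 comparisons).

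**Figure D4:**
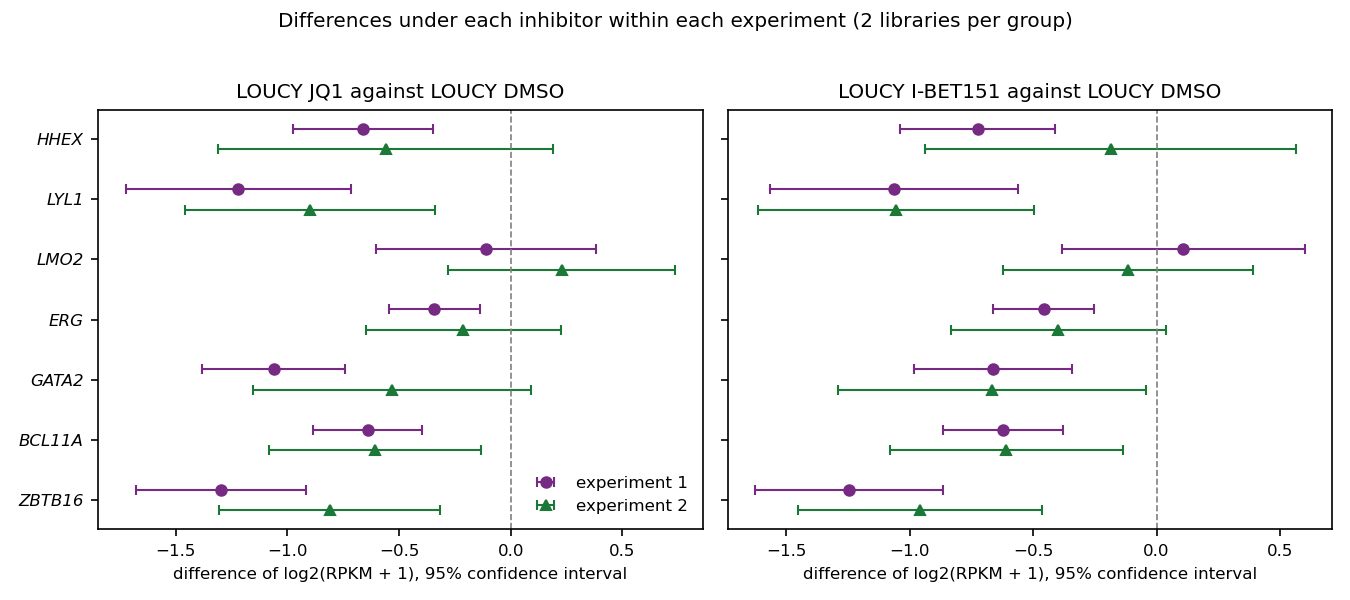
Difference of 7 members under JQ1 (left) and I-BET151 (right) against DMSO, within experiment 1 (circles) and experiment 2 (triangles), in log2(RPKM + 1) on the horizontal axis with 95% confidence intervals (2 libraries per group). All members other than LMO2 lie to the left of 0 in both experiments, with wider intervals in experiment 2.

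JQ1 was then set directly against I-BET151, 2 BET inhibitors of different chemical class. The doses differed, 250 nM against 500 nM, so this comparison cannot separate compound from dose. By limma 0 of 7 members passed, and 0% of all 11411 genes did. At an unadjusted p under 0.05 the counts were 0 of 7 members and 531 of all genes, and limma voom on recovered reads called 0. The differences, JQ1 minus I-BET151, were -0.16 for HHEX (95% interval -0.56 to 0.25), 0.00 for LYL1 (-0.37 to 0.37) and 0.06 for LMO2 (-0.29 to 0.42). ERG was the member with the lowest unadjusted p, at 0.107, with a difference of 0.15 (-0.04 to 0.34). GATA2 differed by -0.13 (-0.48 to 0.22), BCL11A by -0.01 (-0.22 to 0.21) and ZBTB16 by 0.05 (-0.32 to 0.42). These intervals bound the differences and do not show that the compounds act alike.

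Proteins that work with these factors were described from 6 lists holding 81 genes, of which 75 were in the expression table. Between the lines 14 of the 67 tested genes met the expression minimum through 1 line alone, CD34, CD44, GFI1B, HOXA9, KIT, LMO1, MEIS2, MYCN, NFE2, PBX4, RUNX3, TAL1, TCF4 and TCF7. These had to differ, so the list counts and medians between the lines are descriptions. Of all genes 35.5% were higher and 37.5% lower in LOUCY. Of all 11411 genes tested under the inhibitors, 1157 rose and 1814 fell with JQ1, and 1180 rose and 1819 fell with I-BET151. The list counts were not tested against these. For the LMO2 and LYL1 complex, 14 of 16 genes were tested between the lines, with 4 higher and 7 lower in LOUCY (median -0.35, against -0.02 for all genes). TAL1, the helix-loop-helix relative of LYL1, averaged 0.186 ± 0.067 RPKM in untreated LOUCY against 27.0 ± 2.19 in JURKAT, so the lines held these relatives in opposite order. LMO1, the relative of LMO2, was at 0.285 ± 0.236 against 7.29 ± 0.72 RPKM. GATA3, a T-lineage GATA factor, was higher at 47.2 ± 3.33 against 18.7 ± 1.22 RPKM, as was the E-protein TCF4. With JQ1 1 of 12 rose and 3 fell (median -0.13), and with I-BET151 1 rose and 3 fell (median -0.10). GATA3 stood at 23.6 ± 5.32 RPKM with JQ1 and 28.7 ± 2.97 with I-BET151, against 46.9 ± 3.77 with DMSO. The corepressor CBFA2T3 fell to 2.28 ± 0.52 and 1.92 ± 0.65 RPKM, against 4.76 ± 0.96 with DMSO, and LMO4 rose to 2.96 ± 0.15 and 3.34 ± 0.73, against 1.63 ± 0.21.

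Among MEIS, PBX and HOX partners, 6 of 9 tested genes were higher and 2 lower in LOUCY (median 0.63). HOXA9 averaged 21.7 ± 2.64 RPKM in untreated LOUCY, while every JURKAT library listed it at 0. HOXA10 was at 56.7 ± 15.6 against 1.74 ± 0.22 RPKM. PBX4 and MEIS2 were lower, MEIS2 at 0.146 ± 0.059 against 1.85 ± 0.37 RPKM. HOXA9 moved against most members under the inhibitors, rising to 49.0 ± 6.97 RPKM with JQ1 and 45.9 ± 10.1 with I-BET151, against 22.0 ± 3.27 with DMSO (log2 1.12 and 1.01, SE 0.13 each; limma adjusted p = 5.374e-06 and 1.885e-05). With JQ1 1 of 7 rose (median 0.15) and the other 6 did not pass. With I-BET151 2 of 7 rose (median 0.06), HOXA10 being the second at 82.6 ± 22.5 against 51.4 ± 2.61 RPKM.

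The list of corepressor subunits used by BCL11A and ZBTB16 also holds BCL11B. Of its 17 genes, 5 were higher and 7 lower between the lines (median 0.07), with GATAD2B and SIN3A higher and HDAC1 lower. BCL11B, the relative of BCL11A that marks T-lineage commitment, was lower, at 3.61 ± 0.47 RPKM in untreated LOUCY against 21.6 ± 1.08 in JURKAT. With each inhibitor 2 of 17 rose, the deacetylase HDAC3 and the adaptor RCOR1 (medians -0.14 and -0.18). Of all 11411 genes, 1157 rose with JQ1 and 1180 with I-BET151. HDAC3 averaged 57.8 ± 5.93 RPKM with JQ1 and 61.4 ± 8.48 with I-BET151, against 45.1 ± 8.86 with DMSO. Under other settings the JQ1 calls were lost in 7 of 22 for HDAC3 and 8 of 22 for RCOR1, and that of RCOR1 with I-BET151 in 12 of 22.

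ETS relatives of ERG were mostly higher in LOUCY, for 7 of 11 tested with 1 lower (median 0.69). ELF1 was at 143.8 ± 16.9 against 36.2 ± 3.03 RPKM and ELK3 at 16.8 ± 4.59 against 2.72 ± 0.54, while ETS1 was lower, at 33.2 ± 1.60 against 44.5 ± 2.67. With JQ1 1 of 11 rose and 3 fell (median -0.09), and with I-BET151 1 rose and 2 fell (median -0.19). ETS1, a factor of mature T cells, was at 18.9 ± 2.07 RPKM with JQ1 and 17.9 ± 0.96 with I-BET151, against 37.1 ± 3.30 with DMSO. ETV6 fell to 5.52 ± 0.95 and 5.62 ± 0.58 RPKM, against 10.9 ± 1.34. ELF1 rose to 189.9 ± 9.05 and 211.2 ± 8.97 RPKM, against 154.6 ± 4.18, and its JQ1 call was lost in 7 of 22 other settings.

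Other genes of early T precursors ran in both directions between the lines, 5 of 8 tested higher and 2 lower (median 1.92), although 6 of the 8 met the expression minimum through 1 line alone. GFI1B, a zinc-finger repressor, was at 104.0 ± 22.7 RPKM in untreated LOUCY against 0.0136 ± 0.0334 in JURKAT, and the adhesion receptor CD44 at 30.4 ± 2.81 against 0.218 ± 0.076. The progenitor surface markers CD34 and KIT were lower, CD34 at 0.0505 ± 0.0453 against 1.77 ± 0.22 RPKM and KIT at 0.279 ± 0.075 against 2.36 ± 0.42. Under the inhibitors 6 of the 14 listed genes were tested, MYCN, NFE2, GFI1, GFI1B, MYB and CD44. CD34, KIT, FLT3, MEF2C, BMI1, IL7R and CEBPA averaged under 1 RPKM in every LOUCY group and were not tested. Of the 6, 5 fell with JQ1 (median -1.27) and 5 with I-BET151 (median -1.11), so these medians cover part of the list. GFI1B fell to 17.3 to 20.9 RPKM with JQ1 and 11.5 to 23.2 with I-BET151, against 73.7 to 117.4 with DMSO (n = 4 each). NFE2, a leucine-zipper factor, fell to 24.9 ± 4.67 and 18.7 ± 4.64 RPKM, against 78.5 ± 13.1.

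T-lineage commitment factors were lower in LOUCY for 7 of 12 and higher for 4 (median -1.42). TCF7, an early target of Notch signalling, was at 0.111 ± 0.150 RPKM in untreated LOUCY against 24.4 ± 2.29 in JURKAT, and ID3, an inhibitor of E-proteins, at 3.22 ± 1.46 against 94.7 ± 7.13. RUNX3 and GATA3 were higher in LOUCY, RUNX3 at 10.7 ± 2.02 against 1.01 ± 0.27 RPKM. With JQ1 1 of 11 rose and 4 fell (median -0.22), and with I-BET151 3 of 11 fell (median -0.10) and the other 8 did not pass. IKZF1, a lymphoid zinc-finger factor, fell to 4.33 ± 0.28 RPKM with JQ1 and 4.67 ± 0.78 with I-BET151, against 10.3 ± 0.60 with DMSO. NOTCH1 was the gene that rose with JQ1, at 2.42 ± 0.23 against 1.66 ± 0.45 RPKM, a call lost in 12 of 22 other settings. By limma 0 of the 60 genes tested over the 6 lists passed for DMSO against untreated LOUCY and 0 of 60 for JQ1 against I-BET151. At an unadjusted p under 0.05 the counts were 3 and 5, and limma voom called 0 in both.

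**Figure D5:**
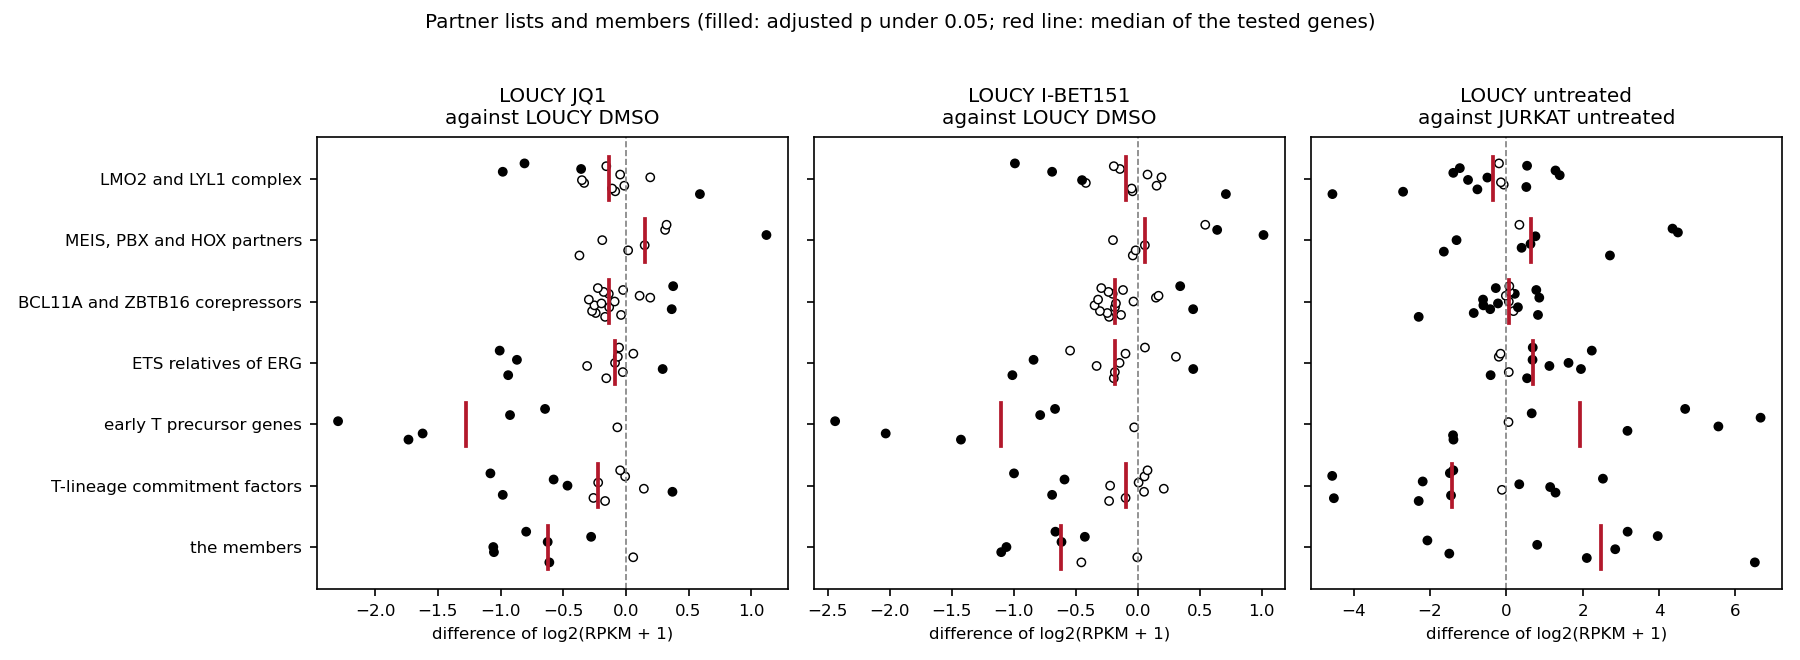
Differences of the tested genes of 6 partner lists and of the members, in log2(RPKM + 1) on the horizontal axis, for JQ1 and I-BET151 against DMSO and for untreated LOUCY against JURKAT. Each dot is a gene, filled where the adjusted p was under 0.05, and red lines are list medians. Under the inhibitors the medians of the members (-0.62 with each) and of the 6 tested early T precursor genes (-1.27 and -1.11) lie left of 0.

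Genes whose levels followed each member most closely over the 5 group means were ranked by the root-mean-square difference of centred log2(RPKM + 1), among 4484 candidates. HHEX was nearest to CTHRC1 (0.115) and SMIM24 (0.145), and LYL1 to METTL7B (0.0881) and PDCD4 (0.109). For LMO2 they were CLSTN3 (0.0283) and TMC6 (0.0359), and for ERG TTC38 (0.0441) and GALM (0.0916). GATA2 was nearest to SERPINB6 (0.0653) and H2AFY2 (0.0953), and BCL11A to GABPB1 (0.0654) and CDKAL1 (0.0863). The genes nearest to MEIS1 were DHDH (0.0421) and SLC3A2 (0.0617), and those nearest to ZBTB16 were TMEM223 (0.0941) and CPNE7 (0.102). With 5 group means per gene, this ranking is a description of likeness in these libraries.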

How the data were processed

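Per the labels' protocols, column-purified RNA from cultured cells was converted to cDNA by Smart-seq2 and tagmented with Nextera XT, which keeps no strand. The submitters' processing notes name STAR 2.5.1b, featureCounts, Subread 1.4.5-p1, edgeR 3.10.5 and hg38, with settings and gene annotation not given in the sources used here. The deposited RPKM values, which the authors scaled to gene length and library size, were used as log2(RPKM + 1). Genes were tested where 4 or more libraries of the fit reached 1 RPKM, using limma 3.58.1 (R 4.3.3, statmod 1.5.0), two-sided, with an additive experiment term and eBayes trend, at a Benjamini-Hochberg adjusted p under 0.05 over all genes. The lines were compared in 12 libraries and the other comparisons shared a fit of 18 LOUCY libraries. Whole reads were recovered from the RPKM steps for 100% of 15862 genes, within 0.001 reads, at 4381134 to 7074198 reads per library, and low genes rest on few reads. Counting intervals are exact at 95%. limma voom on these reads called 8705 genes between the lines, 2909 for JQ1 and 2994 for I-BET151. Fits were checked on simulated data. Gene positions are from GENCODE on GRCh38. Python 3.11.15, numpy 2.4.6 and pandas 2.3.3 were used. The members, the partner lists, the markers and the tests were chosen with earlier results of these data known. 1 lineage marker is not reported here and was left out of its sum. Genes named beside the members were, per list and comparison, up to 2 past the threshold in each direction with the lowest adjusted p, the 2 closest in pattern to each member, and HEXIM1. Other settings tried included pseudocounts of 0.1 and 0.5 RPKM, no expression minimum, no experiment term, 1 experiment alone, rescaling by median ratios, a replicate block, leaving out each library, and, chosen after seeing the data, removal of each library's GC trend.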

Additional observations from a re-analysis of the deposited data

Results flagged for a closer look

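ZBTB16 in LOUCY with DMSO, replicate 2 of experiment 1, stood at 1.679 RPKM, apart from the other 3 DMSO libraries at 1.386 to 1.436 RPKM. Its gap to the nearest library was 0.83 of the group's range, just past Dixon's 95% critical value for 4 samples. Such a test flags about 1 in 20 groups by chance, and 40 sets of values were tested. All 4 DMSO libraries were above all inhibitor libraries.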

How the results depend on the processing

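Between the lines, all 8 members kept their direction and passed under each of the 26 other settings. In experiment 2 alone 0 of 7 members passed with JQ1 and 2 of 7 with I-BET151, against 6 of 7 each in experiment 1 alone, which holds as many libraries per group. Each count of members above 0 under the inhibitors includes ZBTB16, which met the expression minimum through the DMSO and untreated libraries alone. All 3 libraries of steep GC slope lie in experiment 2. Without them 6 of 7 passed with each inhibitor over both experiments, where all libraries gave 6 with JQ1 and 5 with I-BET151. Experiment 2 alone was not fitted without them, so the part of GC slope in its counts was not tested. Otherwise 4 to 6 members passed with JQ1 and 5 or 6 with I-BET151 under the 22 settings of each, and the calls that moved were those of HHEX (JQ1 and I-BET151) and ERG (JQ1). Numbered replicates were not treated as pairs. In each comparison some correlations of their deviations were under 0.1, but these cannot settle whether replicates were paired. Where both groups hold 2 libraries per experiment, both replicates give the same correlation by construction. The range was -0.548 to 0.697, and for I-BET151 against DMSO 0.018 to 0.697. The highest was in experiment 2, where replicate 1 of both groups had a steep GC slope. With the replicate block, HHEX had an adjusted p of 0.01646 and ERG of 0.04718 for JQ1, and no member's call changed. For DMSO against untreated LOUCY, 0 members passed under all 24 settings, while the count of all genes, 20, became 13 without the experiment term, 4 with the replicate block, 57 and 0 in experiments 1 and 2 alone, 42 in a fit of 24 libraries, 34 without the libraries of steep GC slope, 6 with replicates averaged and 201 with GC trends removed. Leaving out DMSO replicate 1 of experiment 1 gave 12. Each of 3 further libraries, left out, gave 13, and these were the second DMSO library of experiment 1, the first DMSO library of experiment 2 and the third untreated one of experiment 2. JQ1 against I-BET151 gave at most 1 gene. The cause of these differences was not tested. Depth limits HHEX, LYL1, LMO2 and GATA2 in JURKAT and ZBTB16 and MEIS1 in inhibitor-treated LOUCY, which rest on few reads.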
